A study of Hordeum vulgare with 4 samples.

Results

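The genes described here are the 36 gene models of barley (Hordeum vulgare) leaf that were well expressed in the wild type and over 8-fold lower in transgenic plants with constitutive expression of HvHSFA2e, which is a heat shock transcription factor inducible by heat. They were chosen by their measured values. A member had at least 10 CPM (reads scaled to a library total of 1000000) in both wild-type libraries, and the lower wild-type library had at least 8 times the CPM of the higher overexpression library. The 36 members were found among 63254 assembled genes, of which 8898 had at least 10 CPM in both wild-type libraries. Because this rule read the contrast between the genotypes in all 4 libraries, the size and direction of that contrast in the members are given as a description and not as a finding.

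Each genotype, wild type and HvHSFA2e overexpression, both labelled cultivar Golden Promise, was represented by 2 leaf libraries. The labels give every library the same heat treatment of 42 °C for 30 minutes, but the treatment protocol gives 40 °C for 4 h at 2 weeks of age and the extraction protocol describes leaves of plants aged 5 weeks without naming heat. Whether and how the sequenced leaves were heated is thus unclear, and no library is labelled as unheated. The labels do not name the promoter of the transgene, the number of transgenic lines, or whether replicates were separate plants, so the spread between libraries may be technical. Library totals were 6030406 and 22631196 expected reads in wild-type replicates 1 and 2 and 14488461 and 14128916 in overexpression replicates 1 and 2.

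Heat shock factors are plant and animal transcription factors that bind short repeated elements in promoters and activate genes for heat shock proteins, the chaperones that keep other proteins folded under heat. Class A factors act mainly as activators. In Arabidopsis the A2 member is itself induced by heat and extends the response to repeated or lasting stress. The study asks how barley plants that carry one such factor at a constitutively raised level differ in stress response and development. The assembly identifiers matched no entry of the RefSeq gene table for barley (0 of 63254), so no gene name or function is given for any member, and the level of HvHSFA2e itself and leaf marker genes were not analysed here. Members are numbered 1 to 36 in falling order of their mean wild-type signal per unit of length, the scale on which levels of different genes can be compared.

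The members went from a visible to a very small part of the leaf transcriptome. Together they took 0.431% and 0.436% of the reads in the wild-type libraries and 0.0290% and 0.0282% in the overexpression libraries. These were 26002 and 98674 reads in wild-type leaves and 4204 and 3989 in transgenic leaves. The shares of the libraries within a genotype lay close together and the genotypes did not overlap, as the rule requires. In bulk leaf RNA, fewer cells of a type and less RNA per cell cannot be told apart.

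Single members spanned a wide range. In wild-type replicate 1 the member levels ran from 11.8 to 746 CPM with a median of 36.8, and in replicate 2 from 11.8 to 819 CPM with a median of 36.1. In overexpression replicate 1 they ran from 0 to 83.1 CPM with a median of 2.21, and in replicate 2 from 0 to 68.2 CPM with a median of 1.98. By the lower wild-type library, 12 members had 10 to 20 CPM, 9 had 20 to 50, 6 had 50 to 100 and 9 had at least 100 CPM. In the overexpression plants 22 members kept at least 1 CPM in both libraries, 6 of them at least 10 CPM, while 5 members were under 1 CPM in both.

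**Figure D1:**
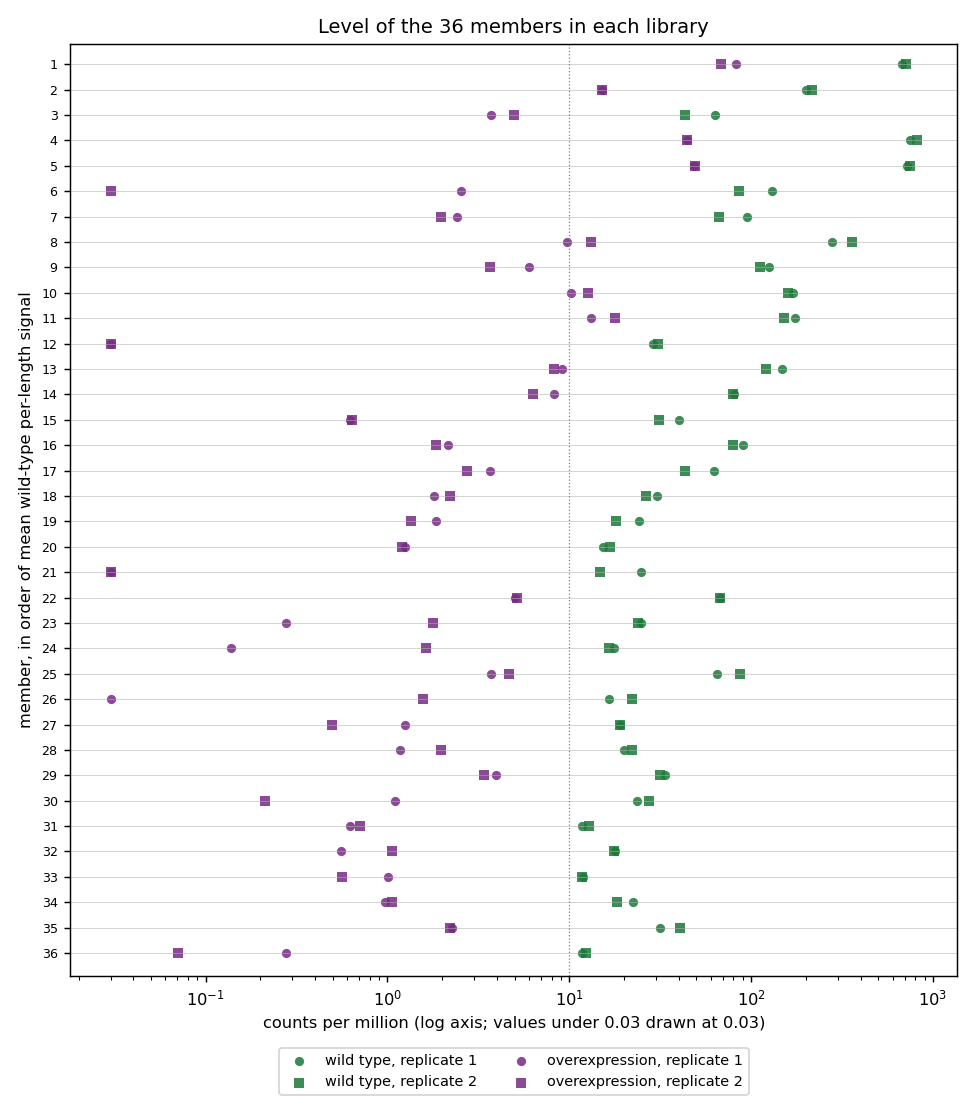
CPM of each of the 36 members (rows, ordered by mean wild-type signal per length) in the 4 libraries on a log axis; green marks are wild type, purple marks overexpression, circles replicate 1 and squares replicate 2. The wild-type marks of each row lie together at or above 11.8 CPM, and the purple marks spread most in the rows with few reads.

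Between the closest libraries, the reduction was between 8-fold and 16-fold in most members. This ratio sets the lower wild-type against the higher overexpression library, so it is smaller than the reduction of the means. The ratio of the lower wild-type to the higher overexpression library was 8 to 16 in 22 members, 16 to 32 in 8, and at least 32 in 6, of which 2 had no whole read in transgenic leaves. Over the 34 members with reads there, the median ratio was 13.3 and the highest 49.1. The median log2 fold change of the 36 members, from the edgeR fit across all 25095 genes tested, was -4.41, against 0.06 over all genes tested and -0.28 over the 8898 expressed genes. With the 2 unread members set to their bounds of -8.11 and -7.13 the median of the members was also -4.41. It could not have moved, since both bounds lie below it. The 10 members that averaged 100 CPM or more over the wild-type libraries had a median log2 fold change of -4.18 and the other 26 members one of -4.47.

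Such reductions were rare among expressed genes. Of the 8898 genes, 39.1% had both overexpression libraries below both wild-type libraries, 6.66% were at least 2-fold apart in this sense, 1.42% at least 4-fold, 0.405% at least 8-fold (the members), 0.157% at least 16-fold and 0.0674% at least 32-fold. In the other direction, the lower overexpression library was at least 8 times the higher wild-type library in 27 of the same genes (0.303%). That count keeps the limit of 10 CPM in the wild type and so leaves out genes raised from lower wild-type levels. The counts therefore do not weigh decreases against increases. All 36 members passed the filter on low counts and all were called lower in the edgeR quasi-likelihood test at an adjusted p under 0.05, where 16.1% of the genes tested were called lower. Since the rule used this contrast, nothing is read from that count. DESeq2 did not call member 26 (adjusted p = 0.134), and without wild-type replicate 2 edgeR did not call members 24 and 26 (adjusted p = 0.0531 and 0.0778).

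**Figure D2:**
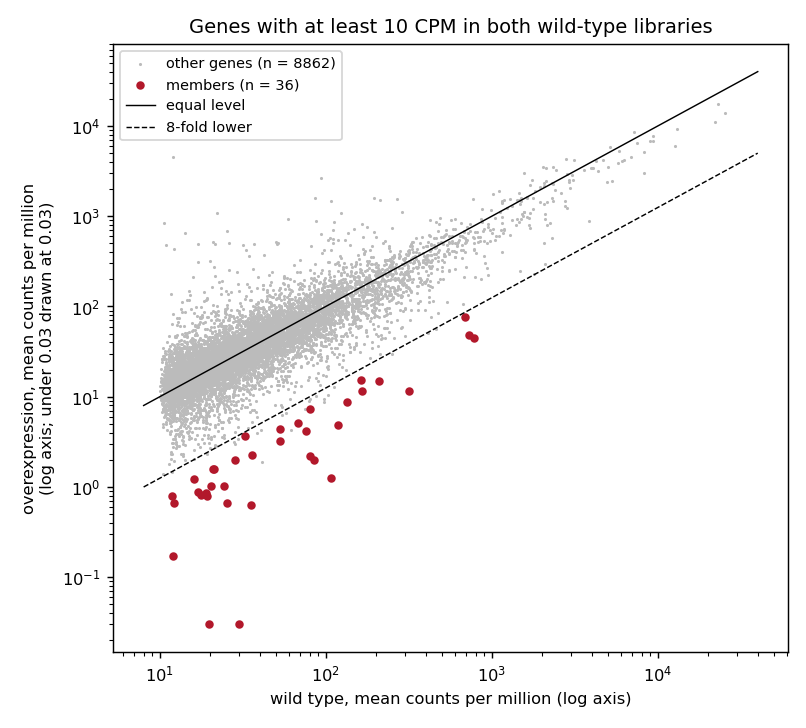
Mean CPM in wild-type leaves (x) and in transgenic leaves (y) for the 8898 genes with at least 10 CPM in both wild-type libraries, both on log axes. The 36 members (red) lie below the dashed line of an 8-fold reduction; grey genes near or under that line missed the rule because it compares the closest libraries and not the means.

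The most abundant member per length was TRINITY_GG_30471_c0_g1. Its signal, the authors' TPM (transcript abundance corrected for length) scaled by a trimmed mean of M-values (TMM) factor for each library, was 1512 and 1753 in wild-type leaves and 163 and 147 in transgenic leaves. By mean wild-type signal it stood at place 72 among all genes, the only member among the first 100. In reads it had 673 and 710 CPM in wild-type leaves and 83.1 and 68.2 CPM in transgenic leaves, and its log2 fold change was -3.45 ± 0.18 (SE, 2 libraries per genotype here and below). Its reduction was among the smallest of the group, with 8.09 times between the closest libraries, and it had the highest mean signal of all members in transgenic leaves too.

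The second member, TRINITY_GG_5946_c0_g2, had a signal of 942 and 1297 in wild-type leaves and 64.7 and 71.6 in transgenic leaves. Its reads fell from 199.8 and 217 CPM to 15.1 CPM in each overexpression library, a log2 fold change of -4.04 ± 0.18 (SE). Member 4 was assembled from the same partition, the set of overlapping reads that the assembler treats as a unit. It had 746 and 819 CPM in wild-type leaves, the highest read level of the group, and 44.7 and 44.5 CPM in transgenic leaves (log2 fold change -4.39 ± 0.19, SE). Both genes of this partition thus fell, by 13.2 and 16.7 times between the closest libraries. Whether both belong to 1 locus was not tested.

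Other members of the first 10 were reduced to different depths. Member 5 was read at 718 and 747 CPM in wild-type leaves and 48.4 and 49.2 CPM in transgenic leaves, a log2 fold change of -4.16 ± 0.18 (SE). Member 8 was read at 279 and 357 CPM and then at 9.66 and 13.2 CPM, a deeper reduction of -5.04 ± 0.28 (SE) on the log2 scale. The genotypes stood far apart in both, and the libraries of a genotype differed by 1.5 times or less.

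Members 1, 4, 5 and 8 had most reads in wild-type leaves and held 56.0% and 60.4% of the members' reads there. The same members held 64.0% and 62.0% in transgenic leaves, although members 2 and 11 had more reads than member 8 in both overexpression libraries. Member 7 was read at 94.4 and 66.3 CPM in wild-type leaves and 2.42 and 1.98 CPM in transgenic leaves, a log2 fold change of -5.43 ± 0.25 (SE). Members 9 and 10 were more alike in wild-type leaves. Member 9 had 125 and 111 CPM there and 6.005 and 3.68 CPM in transgenic leaves, and member 10 had 171 and 160.3 CPM and then 10.3 and 12.7 CPM.

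Member 3 showed how far the length scale moves an order. It had 63.2 and 43.0 CPM in wild-type leaves and 3.73 and 4.95 CPM in transgenic leaves, yet its wild-type signal per length was 998 and 1203. Its model had a very small effective length, the length implied by reads per unit of signal, at 0.0363 times that of the median expressed gene. From wild-type replicates 1 and 2 it was 0.0461 and 0.0265 times that median, so it is not a count of bases. Wild-type replicate 1 was therefore the higher library in reads and the lower one in signal, and the place of member 3 near the head of the order is uncertain. Member 2, at 0.139 times the median effective length, had a lower signal than member 3 in wild-type replicate 1 and a higher one in replicate 2. The order of members 2 and 3 is thus uncertain too. In all 36 members the signal of the lower wild-type library was also at least 8 times that of the higher overexpression library or that signal was listed at 0, with 9.27 as the smallest ratio.

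In members 12 and 21 no whole read was left in transgenic leaves. Member 12 had 29.0 and 30.7 CPM in wild-type leaves, from 175 and 695 reads, and its expected counts rounded to 0 in both overexpression libraries. Member 21 had 24.8 and 14.7 CPM, from 149 and 333 reads, and also 0 and 0 reads. The 28617376 overexpression reads make 3 reads over both libraries equal to 0.105 CPM. Against that floor, which covers counting error only, and taken from the lower wild-type library, CPM was at least 277-fold lower in member 12 and at least 140.4-fold lower in member 21.

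In 6 further members the overexpression libraries differed from each other by more than 3 times. Member 6 had 129.7 and 85.9 CPM in wild-type leaves, and 37 reads (2.54 CPM) in overexpression replicate 1 against 0 in replicate 2. Members 23, 24 and 26 were split in the opposite sense, with 4, 2 and 0 reads in overexpression replicate 1 and 25, 23 and 22 in replicate 2. The remaining 2 were members 30 and 36, with 16 and 4 reads in replicate 1 and 3 and 1 in replicate 2. The totals of these libraries were nearly equal. The log2 fold changes of members 6, 24 and 26 had the largest standard errors among members with reads in transgenic leaves, at 0.82, 0.67 and 0.84.

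The libraries of a genotype lay closer together in the other members. In 23 members the overexpression libraries were within 1.5 times of each other, and in 23 of 36 members (63.9%) the wild-type libraries were within 1.2 times, against 69.1% of the expressed genes. The widest wild-type gap was 1.68 times, in member 21. The higher wild-type library was replicate 2 in 16 members and replicate 1 in the other 20.

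Among members with reads in transgenic leaves, the deepest reductions between the closest libraries were those of members 15, 36, 16 and 6. Member 15 had 40.1 and 31.3 CPM in wild-type leaves and 0.621 and 0.637 CPM in transgenic leaves, from 9 reads each. Its ratio of pooled reads per TMM-scaled library size was 63.6 with an exact 95% counting interval of 40.0 to 108. Member 36, the lowest of the order by length, had 11.8 and 12.4 CPM in wild-type leaves and 4 and 1 reads in transgenic leaves, a ratio of 84.6 with an interval of 35.9 to 262. Member 16 was better measured, with 31 and 26 reads in transgenic leaves and a ratio of 49.8 (38.3 to 65.9). Member 6, with 37 reads in overexpression replicate 1 and 0 in replicate 2, had a ratio of 88.8 (64.3 to 126). By the pooled ratio the order of these members was thus 6, 36, 15 and 16, unlike that between the closest libraries. The intervals cover counting error only, and whether these members differ from each other was not tested.

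The last 3 of the order were members of modest level. Member 34 had 22.4 and 18.3 CPM in wild-type leaves and 0.966 and 1.06 CPM in transgenic leaves, and member 35 had 31.5 and 40.7 CPM and then 2.28 and 2.19 CPM. Member 35 had the largest effective length of the group, at 2.16 times the median expressed gene. It so stands lower in the order per length than its reads alone would place it.

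The fold limit cut through a continuous range. Just inside it lay members 29, 1, 11, 3 and 14, with 8.03, 8.09, 8.49, 8.69 and 9.57 times between the closest libraries. Just outside lay 5 genes with 7.95, 7.78, 7.72, 7.24 and 7.13 times. The first of these had 19.7 and 18.6 CPM in wild-type leaves and 2.35 and 2.26 CPM in transgenic leaves, against 33.5 and 31.6 and then 3.93 and 3.40 CPM in member 29. The limit of 10 CPM also left out a gene with 43.3 and 9.54 CPM in wild-type leaves and no read in transgenic leaves, and one with 9.95 and 10.4 CPM and then 0.621 and 0.566 CPM.

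By effective length and number of isoforms, the members were short and simple gene models. Length was not used by the rule and was taken from the wild-type libraries as reads per unit of length-scaled signal. It is thus an effective length that need not be proportional to the bases of a model, and lengths in bases were not available. The median member had 0.618 times the effective length of the median expressed gene. Of the members, 12 (33.3%) were under 0.5 times that median, against 15.3% of expressed genes, and 5 members (13.9%) were under 0.25 times it, against 3.92%. At the other end, 2 members (5.56%) were over 2 times the median, against 10.7%. A single isoform was assembled for 23 members (63.9%), against 43.7% of expressed genes, and the largest number in a member was 5, against 39.

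**Figure D3:**
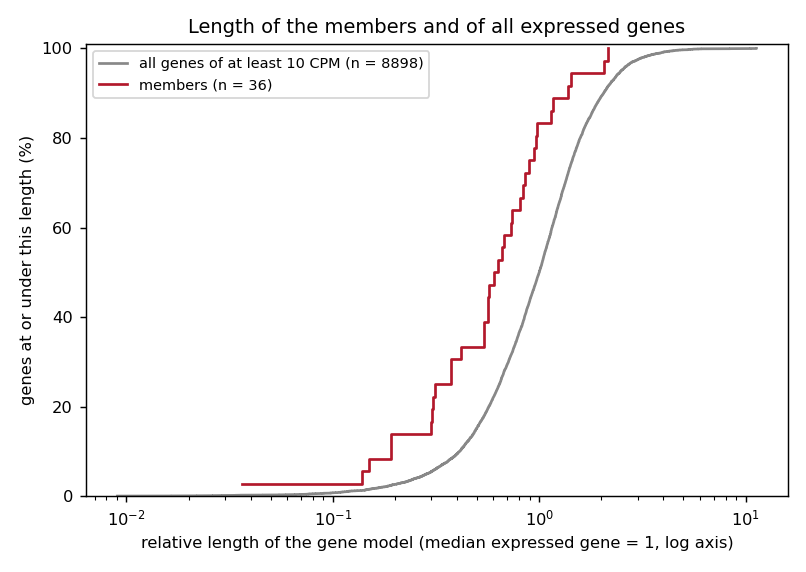
Cumulative percentage of genes (y) at or under a given relative effective length of the gene model (x, log axis, median expressed gene set to 1) for the 36 members (red) and all 8898 expressed genes (grey). The red curve lies to the left, with medians of 0.618 and 1.00.

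Most members also stood alone in their partition. In 21 of 36 members (58.3%) the partition held no other gene, against 26.4% of the expressed genes. Length, isoform number and partition are related features of gene models, which are not replicates, and the differences were not tested. No other gene had the same 4 expected counts as a member, so no member was an exact repeat of another model.

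The partitions of 15 members held a further gene. Outside the group there were 19 such partner genes, of which 10 passed the filter on low counts. The partners of members 3, 8, 10, 13 and 36 were under 0.5 CPM in both overexpression libraries and passed that filter through their wild-type reads, so they had to differ and are described without a test. The partner of member 8 had 2.98 and 3.05 CPM in wild-type leaves and 0 and 0.0708 CPM in transgenic leaves. That of member 36 had 6.30 and 5.83 CPM and then 0.276 and 0 CPM. That of member 3, also of very small effective length, had 9.95 and 3.14 CPM and then 0.276 and 0.425 CPM. Each of these 5 partners was read at a lower CPM than its member in both wild-type libraries.

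The other 5 tested partners, in 3 partitions, were read in both genotypes, and their fold changes were far smaller than that of the member. This difference follows in large part from the choice of genes, since they were set apart by their level in transgenic leaves. All but the last one below also had at least 10 CPM in both wild-type libraries, and an 8-fold reduction would have made them members. One partner of member 6 had a signal of 3267 and 3089 in wild-type leaves and 1553 and 2360 in transgenic leaves (log2 fold change -0.74 ± 0.24, SE, edgeR adjusted p = 0.0494), while the signal of member 6 went from 573 and 475 to 10.1 and 0. That call held in 5 of 12 alternatives, with adjusted p-values up to 0.199, and was lost without either wild-type library. The other tested partner of member 6 differed by -0.01 ± 0.26 on the log2 scale (SE) and was not called (edgeR adjusted p = 0.976). The partner of member 12 had 14.7 and 19.5 CPM in wild-type leaves and 10.1 and 14.7 CPM in transgenic leaves, where the expected counts of member 12 rounded to 0. The log2 fold change of this partner was -0.72 ± 0.28 (SE, edgeR adjusted p = 0.0866, but 0.0321 with a replicate block). It was -0.44 without overexpression replicate 1 and -1.13 without overexpression replicate 2. Member 29 had a partner with 9 isoforms at 179 and 201 CPM in wild-type leaves and 121 and 58.5 CPM in transgenic leaves (-1.35 ± 0.29, SE, edgeR adjusted p = 0.0135, but 0.0579 without wild-type replicate 1 and 0.109 without replicate 2), and a further one that was not called (log2 fold change -0.78 ± 0.43, SE, edgeR adjusted p = 0.196). RSEM divides reads that match several models by estimate, so the division of reads between genes of 1 partition is uncertain.

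**Figure D4:**
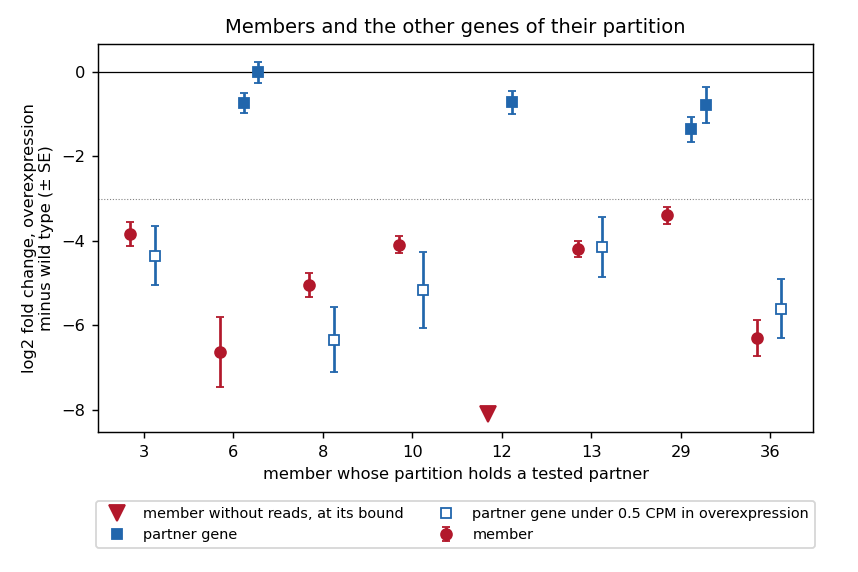
log2 fold change (overexpression minus wild type, ± SE) of the 8 members whose partition held a tested gene outside the group (red) and of those partner genes (blue; open where both overexpression libraries were under 0.5 CPM, filled otherwise). Partners of members 3, 8, 10, 13 and 36 lie near or below the member, those of members 6, 12 and 29 well above it. The triangle of member 12 marks its bound, since it had no whole read in transgenic leaves, and the dotted line marks 8-fold.

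The isoforms of a member were low together. The 13 members with 2 or more isoforms had 34 isoforms, of which 28 had at least 1 CPM in both wild-type libraries. In all 28 both overexpression libraries were below both wild-type libraries, and in 23 by at least 8 times, which follows in large part from the choice of the genes. The isoform with most reads was the same in all 4 libraries in 12 of the 13 members. The exception was member 36, whose overexpression libraries held only 4 and 1 reads.

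The division of reads among isoforms was not used by the rule and was tested, within the limits given below. With edgeR's diffSpliceDGE (Simes p over the isoforms of a gene), 220 of 6849 genes (3.21%) differed in isoform usage at an adjusted p under 0.05. Of the 9 members with at least 2 tested isoforms, 0 did, with 0.0824 as the smallest adjusted p. At an unadjusted p under 0.05 there were 3 of 9, members 1, 4 and 11, against 17.6% of all genes tested, and no other tool was run on usage. The tested members had 1204 reads or fewer in each overexpression library, which limits how small a shift of a minor isoform could be seen. Member 36 had only 4 and 1 reads there. The minor isoforms of members 11 and 25 passed the filter on low counts through wild-type reads alone, with 0 reads in both overexpression libraries. No conclusion on unchanged usage is therefore drawn from the 0 of 9.

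In members 4 and 11 the minor isoform was at or near 0 reads while the major one kept a part of its reads. The minor isoform of member 4 took 2.59% and 2.37% of the gene's reads in wild-type leaves and 0% and 0.506% in transgenic leaves. That of member 11 took 2.55% and 3.42% in wild-type leaves, from 26.7 and 117 expected reads, and had none in transgenic leaves, where the gene had 191 and 251 reads. Neither passed the test after adjustment. In member 10 the leading isoform went from 89.2% and 85.8% to 77.0% and 75.7% of the reads (edgeR adjusted p = 0.607), and in member 8 from 81.4% and 80.0% to 76.6% and 78.6%.

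**Figure D5:**
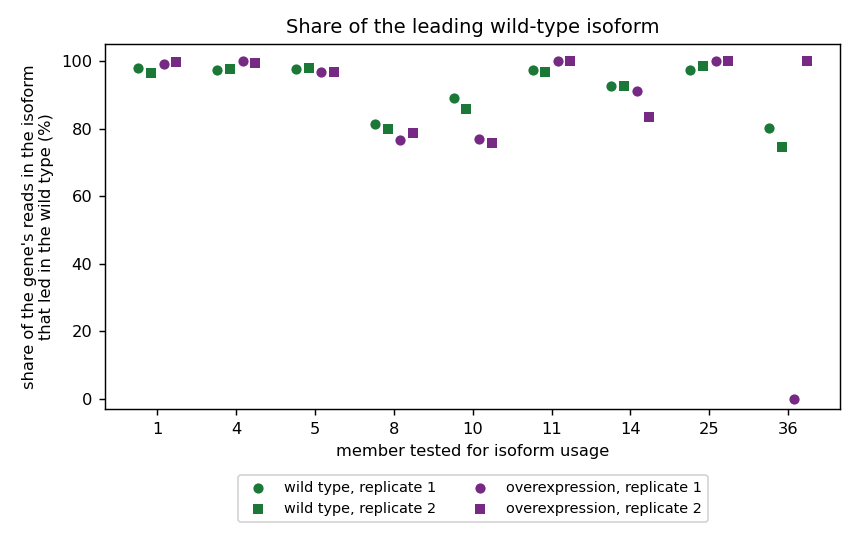
Share of a gene's reads (%) in the isoform that led in wild-type leaves, for the 9 members tested for isoform usage, in each library (green wild type, purple overexpression, circles replicate 1, squares replicate 2). The shares stay at 74.4% or more in every library but one, that of member 36 in overexpression replicate 1, which rests on 4 reads.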

How the data were processed

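Leaf RNA-seq of 2 wild-type and 2 overexpression libraries was used, made with a SMARTER mRNA-Seq kit per the labels. STAR, Bowtie2, RSEM and DESeq2 are named, without versions, in the submitters' processing notes; feature names carry the prefix of genome-guided Trinity, per the file headers, and the build is not given in the sources used here. Per the file names, the authors deposited RSEM expected counts per isoform and a signal, TPM scaled by 1 TMM factor per library, per isoform and gene. The deposited gene count table holds a normalized signal and served as an alternative.

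Expected counts were summed per gene. CPM in the text is per column sum. For tests, sums were rounded, filtered with filterByExpr (minimum count 10, total 15), scaled by TMM and fitted with edgeR 4.0.16 (R 4.3.3; genotype as factor; Benjamini-Hochberg over all 25095 genes); standard errors were computed as log2 fold change over root F. Isoform usage used diffSpliceDGE. DESeq2 1.42.0 and limma 3.58.1 served as alternatives. Relative length is reads per unit of signal in the wild-type libraries, an effective length and not a count of bases. The members, lists and tests were chosen with earlier results of these data known. Identifiers are printed for the 2 members with the highest wild-type signal; other members were described by the same order, by fold, reads, partition and isoform usage. For 2 against 2 libraries the smallest two-sided p of an exact permutation test is 0.333, so none was run on single values, and adjusted p-values come from fits across all genes. Sequences were not analysed here.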

Additional observations from a re-analysis of the deposited data

How the results depend on the processing

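The number of members depended on the limits: 57 genes met the rule at 5 CPM, 126 at 4-fold, 14 at 16-fold and 69 in the deposited gene table, of which 32 were members. With a library left out, 43 to 69 genes met it, all 36 members among them, since fewer libraries had to pass; leaving out wild-type replicate 2 gave 64, and leaving out overexpression replicates 1 or 2 gave 56 or 69. TMM-scaled library sizes gave 48 genes and DESeq2 size factors 50. Summing per partition, chosen after seeing the data, gave 33 partitions. Of these, 32 hold 33 of the 36 members and 1 holds no member. Members called lower numbered 34 to 36 in every alternative. Their median log2 fold change was -4.15 with library size alone, which moved the median of all genes from 0.06 to 0.32, -3.79 and -4.26 with limma on log2(signal + 1) and + 0.1, and -4.51 to -4.24 with a library left out. As a share of length-scaled signal the members took 0.737% of wild-type and 0.0510% of transgenic libraries. No alternative called a member in the usage test (lowest adjusted p = 0.0506, minimum count 50). Deviations from the genotype means correlated at 0.0024 across genes between libraries of the same number. No shared effect of the number was thus seen, but such a correlation cannot exclude that the libraries were paired. With a replicate block 36 members were called lower, the median log2 fold change was -4.40 and 0 members differed in usage. Both named members kept their direction in all 12 alternatives. Since the rule used the same contrast in the same libraries, nothing is read from this or from the counts of members called lower. Wild-type replicate 1 holds 6030406 reads, and members had at least 71 reads in it.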
